A study of Schizosaccharomyces pombe
Saccharomyces cerevisiae with 8 samples.

Results

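The genes described here encode 10 proteins of the ergosterol pathway of Saccharomyces cerevisiae, chosen by systematic identifier: ERG10, ERG13, HMG1, ERG1, ERG11, ERG25, ERG28, ERG6, ERG3 and ERG5. All 10 stood among the 6518 features of the total RNA table, and 6 of them (ERG10, ERG13, HMG1, ERG25, ERG6 and ERG5) among the 2822 features listed for newly synthesized RNA. ERG1, ERG11, ERG28 and ERG3 were not analysed in newly synthesized RNA here. HMG1 (YML075C), ERG1 (YGR175C) and ERG25 (YGR060W) carried no entry in the tables' name column and were found by identifier, and the deposited descriptions of all 10 name a step of the pathway or a partner of its enzymes.

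Ergosterol is the main sterol of fungal membranes, where it fills the place that cholesterol holds in animals. Its synthesis starts from acetyl-CoA, runs through mevalonate and farnesyl pyrophosphate to squalene, and then remodels the sterol ring system in the endoplasmic reticulum in steps that consume oxygen and draw on heme and NADPH. The transcription factors Upc2 and Ecm22 are known to activate many of these genes when sterol runs low, and several of the enzymes are targets of antifungal drugs.

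RNA-seq compared auxin with its carrier DMSO in 1 strain, GZY380, from which all 8 libraries came, to ask what the loss of 2 architectural Mediator subunits does to transcription. The strain is MATalpha with trp1Δ63, ura3Δ0, ade2Δ::hisG, lys2Δ0, leu2Δ0, met15Δ0 and his3Δ200, expresses the plant auxin receptor OsTIR1 from pGPD1 (his3::pGPD1-OsTIR1-HIS3), and carries auxin degrons on MED17 (MED17-3V5-IAA7-kanMX6) and MED14 (MED14-3HA-IAA7-URA3), so DMSO cells hold the tagged proteins too. The 4 groups, each with 2 libraries that the series calls biological replicates, were newly synthesized RNA after 500 µM auxin, newly synthesized RNA after DMSO, total RNA after 500 µM auxin and total RNA after DMSO, all given for 30 min before 5 mM 4-thiouracil for 6 min. Newly synthesized RNA is the fraction that took up 4-thiouracil and was purified from the extracts.

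Counts in the total RNA table summed to 10862028 and 13970025 in auxin libraries and to 13004246 and 17491251 in DMSO libraries. For newly synthesized RNA, the listed features held 4817883 and 5882137 counts in auxin libraries and 13125438 and 15744423 in DMSO libraries. Values below are counts divided by the authors' size factor of each library (normalized counts), and with these factors the median total RNA feature stood at 25.6% and 29.9% of its DMSO mean in the 2 auxin libraries. The counts cannot tell fewer cells from less RNA per cell. The RNA of the tagged genes, which does not show whether the proteins were degraded, had log2 fold changes of -1.27 (MED14, listed as RGR1, SE 0.196) and -1.90 (MED17, listed as SRB4, SE 0.196) in total RNA. The alpha-factor gene MF(ALPHA)1 had between 1012 and 4608 raw counts per total RNA library, whereas the a-factor genes had at most 3 (YDR461W) and 1 (YNL145W) and the a-cell receptor gene YFL026W at most 67, as the labelled mating type implies. Deleted TRP1 (YDR007W) and ADE2 (YOR128C) had at most 9 and 15 raw counts.

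In total RNA the 10 genes were lower after auxin by very unequal amounts, with the authors' scaling. HMG1, ERG5 and ERG6 lost the most, and ERG10, ERG13, ERG1 and ERG25 kept between 65.3% and 78.6% of their DMSO mean. Of the 10 genes 9 were called lower and 0 higher by edgeR's quasi-likelihood test (Benjamini-Hochberg adjusted p below 0.05), and ERG25 was not called, whereas with TMM scaling, which sets the typical gene to no change, 7 were called higher and 1, HMG1, lower. Among all 5589 features tested, 92.3% were called lower and 0.769% higher, and with TMM scaling 32.3% lower and 29.6% higher. A call of lower with the authors' scaling was therefore as common in this group as in the whole table. The groups of libraries did not overlap for 9 of the 10 genes, against 94.6% of all features tested.

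The median log2 fold change of the 10 genes was -1.16, against -1.85 over all features tested. TMM scaling moved the median of all features to -0.09 and that of the 10 genes to 0.61. The distance between the 2 medians was 0.70 with the authors' scaling and 0.71 with TMM scaling. Per library, the genes' median lay 0.74 and 0.66 above that of all features in auxin libraries, measured against the mean of the 2 DMSO libraries. The distance became 0.97 when the genes and the table were both limited to features that are also listed for newly synthesized RNA. None of these distances takes level into account. ERG10, ERG13, ERG1 and ERG11 belong to the most abundant of 10 classes of features by level, whose own median was -0.60. Beside features of like level, set out below, some of the genes lay above the median and others below it.

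**Figure D1:**
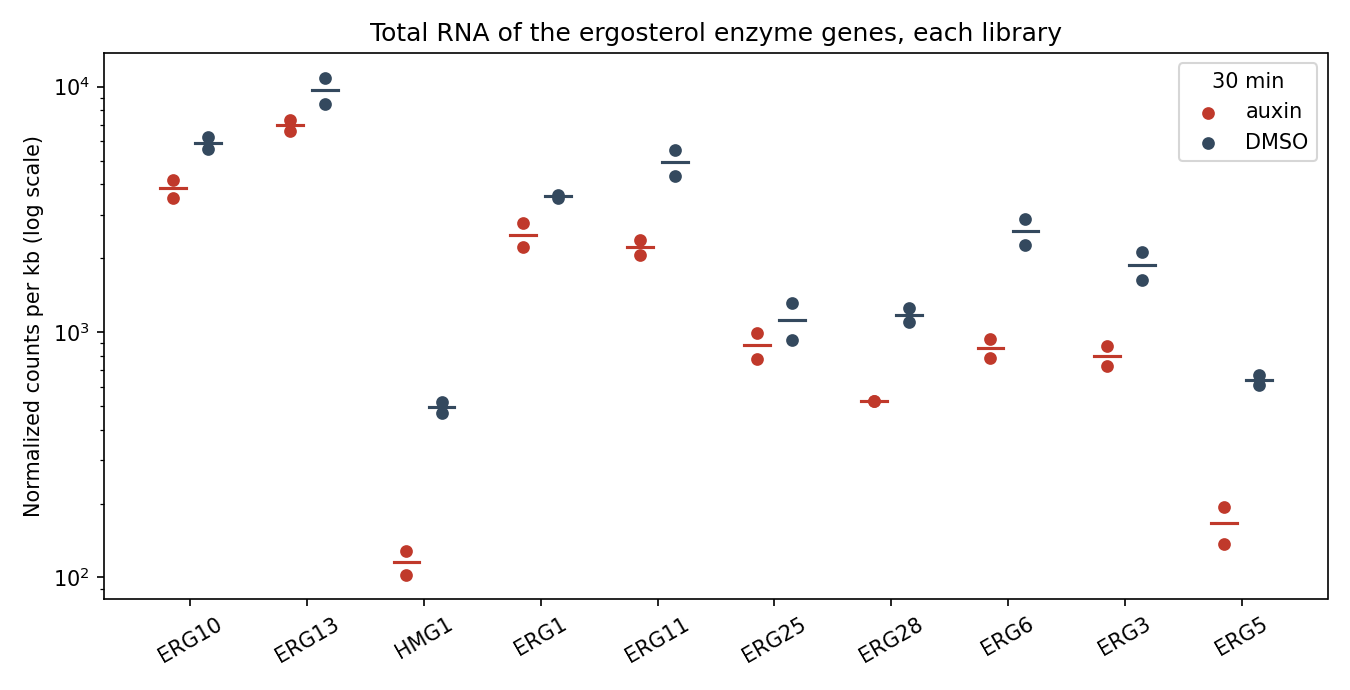
Normalized counts per kb of coding length in total RNA (log axis) for the 10 genes in pathway order. Points are single libraries (2 auxin, 2 DMSO) scaled with the authors' factors and bars are means. ERG13 is highest in both groups, HMG1 lowest, and only for ERG25 do auxin and DMSO libraries overlap.

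The early steps build mevalonate. ERG10 (YPL028W, chromosome XVI 498096 to 499292, build sacCer3), the acetoacetyl-CoA thiolase that joins acetyl-CoA units, had 4226 and 4982 normalized counts in auxin libraries, against 6651 and 7454 in DMSO libraries. It was lower in both auxin libraries, at -0.62 on the log2 scale (SE 0.199, edgeR adjusted p = 2.20e-03). ERG13 (YML126C, chromosome XIII 19060 to 20535), HMG-CoA synthase, had 9726 and 10827 normalized counts in auxin libraries, against 12563 and 16032 in DMSO libraries. Its auxin libraries lay close together and below both DMSO libraries, which differed more from each other, and the log2 fold change was -0.48 (SE 0.201, edgeR adjusted p = 0.0198). HMG1 (YML075C, chromosome XIII 115734 to 118898), the HMG-CoA reductase that catalyses the step at which flux through the pathway is mainly set, had 325 and 405 normalized counts in auxin libraries, against 1480.4 and 1647 in DMSO libraries. Both auxin libraries stood at 20.8% and 25.9% of the DMSO mean, a 4.28-fold fall and the deepest among the 10 genes (log2 fold change -2.10, SE 0.195, edgeR adjusted p = 3.64e-26). ERG10 stood at 59.9% and 70.6% and ERG13 at 68.0% and 75.7% of DMSO, so these consecutive steps did not overlap with HMG1 in how much RNA was left.

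The middle steps act on squalene and lanosterol. ERG1 (YGR175C, chromosome VII 846933 to 848423), the squalene epoxidase hit by terbinafine, had 3297 and 4141 normalized counts in auxin libraries, against 5237 and 5403.5 in DMSO libraries. The DMSO libraries were nearly equal and both auxin libraries lay below them, at -0.52 on the log2 scale (SE 0.197, edgeR adjusted p = 9.65e-03). ERG11 (YHR007C, chromosome VIII 120091 to 121683), the cytochrome P450 that removes the 14-alpha methyl group of lanosterol and the target of azole drugs, had 3278 and 3791 normalized counts in auxin libraries, against 6921 and 8793 in DMSO libraries. It fell 2.22-fold (log2 fold change -1.15, SE 0.200, edgeR adjusted p = 1.21e-08), and at 41.7% and 48.2% of DMSO it kept less than ERG1, at 62.0% and 77.8%.

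Removal of the C-4 methyl groups is carried out by ERG25 (oxidase), YGL001C (C-3 sterol dehydrogenase) and YLR100W (3-keto sterol reductase), which the scaffold ERG28 is known to tether at the endoplasmic reticulum. ERG25 (YGR060W, chromosome VII 610564 to 611493) had 722 and 919.8 normalized counts in auxin libraries, against 865 and 1224 in DMSO libraries. The higher auxin library exceeded the lower DMSO library, and the log2 fold change of -0.34 (SE 0.186) was not called (edgeR adjusted p = 0.0705). ERG28 (YER044C, chromosome V 237570 to 238016) had 234 and 234 normalized counts in auxin libraries, against 489 and 558 in DMSO libraries. It fell 2.23-fold (log2 fold change -1.16, SE 0.197, edgeR adjusted p = 5.82e-09). YGL001C and YLR100W, which are not among the 10 genes, fell with log2 fold changes of -1.01 (SE 0.189) and -1.43 (SE 0.194). With TMM scaling ERG25 and ERG28 were called higher.

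The late steps shape the side chain and the double bonds. ERG6 (YML008C, chromosome XIII 251839 to 252990), the C-24 methyltransferase that gives fungal sterols their extra methyl group, had 903 and 1078 normalized counts in auxin libraries, against 3343 and 2617 in DMSO libraries. It fell 3.01-fold (log2 fold change -1.59, SE 0.196, edgeR adjusted p = 9.73e-16). ERG3 (YLR056W, chromosome XII 253861 to 254958), the C-5 desaturase, had 796.5 and 961 normalized counts in auxin libraries, against 1795 and 2328 in DMSO libraries. Its fall was 2.34-fold (log2 fold change -1.23, SE 0.191, edgeR adjusted p = 2.04e-10). ERG5 (YMR015C, chromosome XIII 300869 to 302485), the C-22 desaturase and the other cytochrome P450 of the pathway, had 222 and 315 normalized counts in auxin libraries, against 982 and 1085 in DMSO libraries. ERG5 fell 3.84-fold (log2 fold change -1.94, SE 0.196, edgeR adjusted p = 1.39e-22) and was the only other gene of the 10 besides HMG1 to lie below the median of all features.

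The calls of several of the smaller falls depended on single libraries. With 1 library left out, the lone library of that group is assumed to vary like the pair of the other group, and a lost call can come from the smaller number of libraries as well as from a smaller fold change. Without DMSO replicate 2, ERG10 was not called (log2 fold change -0.53, edgeR adjusted p = 0.0934). ERG13 was not called without DMSO replicate 2 (-0.29, adjusted p = 0.349) or without auxin replicate 1 (-0.40, adjusted p = 0.142). ERG1 was not called without DMSO replicate 1 (-0.54, adjusted p = 0.0859), without DMSO replicate 2 (-0.49, adjusted p = 0.122) or without auxin replicate 1 (-0.36, adjusted p = 0.132). ERG25 was called lower without auxin replicate 2 (-0.53, adjusted p = 0.0140). The falls of HMG1, ERG11, ERG28, ERG6, ERG3 and ERG5 were called without each of the 4 libraries in turn.

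**Figure D2:**
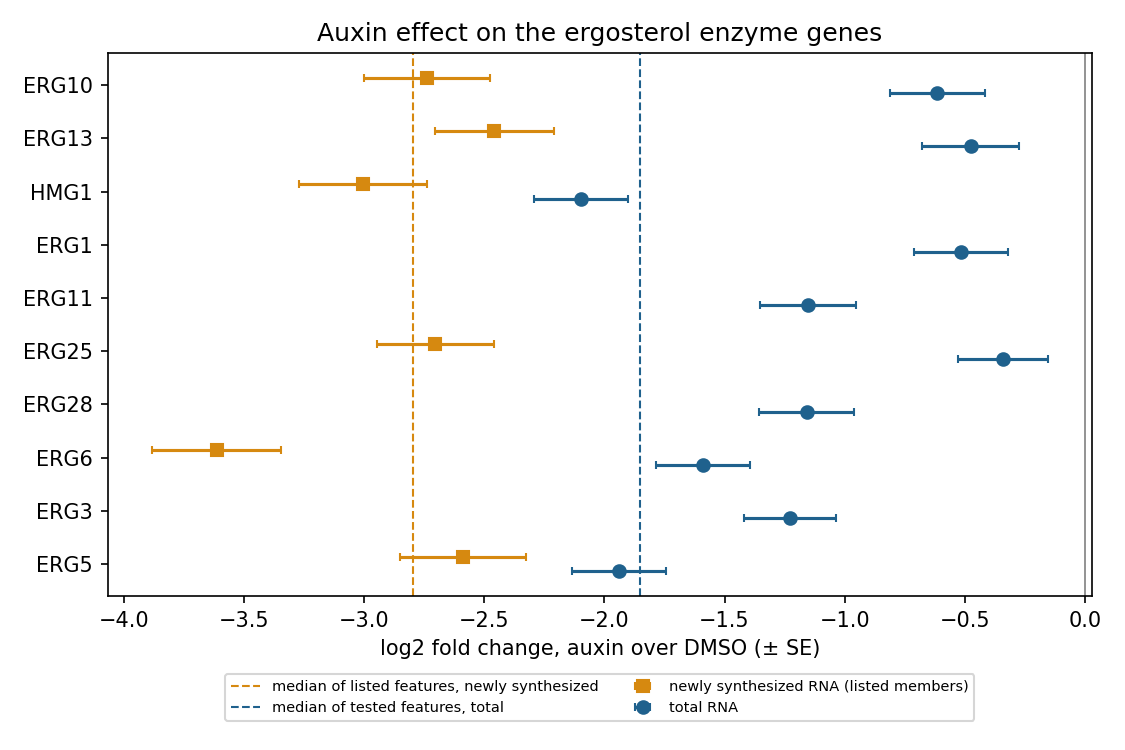
Log2 fold change of auxin over DMSO (± SE, edgeR, authors' scaling) for the 10 genes in pathway order, from total RNA (circles) and from newly synthesized RNA for the 6 listed genes (squares). Dashed lines mark the median of all features in each table, -1.85 in total and -2.80 in newly synthesized RNA. Total RNA values spread from -2.10 to -0.34 and newly synthesized RNA values lie between -3.61 and -2.46, all negative with this scaling, whereas TMM scaling turns 8 of the 10 total RNA values and 4 of the 6 newly synthesized RNA values positive.

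Per kb of coding length, the 10 genes differed widely in level. In total RNA they averaged, from the highest in DMSO, 6963 per kb in auxin and 9687 in DMSO for ERG13, 3846 and 5892 for ERG10, 2219 and 4932 for ERG11, and 2494 and 3568 for ERG1. ERG6 had 859.99 per kb in auxin and 2587 in DMSO, ERG3 had 800.3 and 1878, ERG28 had 523 and 1171, and ERG25 had 883 and 1123. ERG5, with 166 per kb in auxin and 639 in DMSO, and HMG1, with 115 and 494, were the lowest in both groups. Among protein-coding features in DMSO, ERG13 stood at the 96.5th percentile and HMG1 at the 49.2nd. The DMSO libraries of ERG10 (5557 and 6227 per kb) and ERG11 (4345 and 5520 per kb) were separated by a gap narrower than the spread within each pair, and those of ERG28 (1094 and 1248 per kb) and ERG25 (930 and 1316 per kb) overlapped, so the order of ERG28 and ERG25 is not set beyond their spread. The DMSO libraries of all other neighbours in this order did not overlap.

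Shares of the summed per-kb level of the 10 genes do not depend on the scaling of a library. ERG13 made up 37.8% and 36.1% of this sum in auxin libraries, against 28.8% and 31.6% in DMSO libraries. HMG1 made up 0.589% and 0.630% in auxin libraries, against 1.58% and 1.51% in DMSO libraries, and ERG5 0.789% and 0.959%, against 2.05% and 1.95%. ERG6 made up 4.50% and 4.61% in auxin libraries, against 9.82% and 6.61% in DMSO libraries. For each of the 10 genes, not only these 4, the shares in auxin and DMSO libraries did not overlap. In normalized counts, which do depend on scaling, every auxin library lay below every DMSO library for 94.6% of all features tested. How often shares separate in other sets of genes was not tested, so this is not shown to be particular to these 10. The shares are tied to each other, since a rise in any of them lowers the rest. The 10 genes together held 0.230% and 0.236% of all total RNA counts in auxin libraries, against 0.252% and 0.264% in DMSO libraries, and their summed normalized counts stood at 54.3% and 63.2% of the DMSO mean after auxin.

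Abundant RNAs fell least in the whole table, so each gene was set beside features of like level. The tested features were split into 10 classes by mean normalized count in DMSO total RNA, not divided by length. This quantity shares its DMSO libraries with the fold changes. The median log2 fold change was -0.60 in the class of the most abundant features, and ERG10 (-0.62), ERG13 (-0.48) and ERG1 (-0.52) lay within 0.13 of it. ERG11, in the same class, lay 0.55 below its median, where 27.1% of the class had the same or a lower value. ERG5 and HMG1 lay 0.06 above and 0.24 below the medians of their classes, -2.004 and -1.86, and ERG6 lay 0.22 below -1.37. ERG25 shared its class with ERG5 but stood 1.66 above its median, where 98.6% of the class had the same or a lower value. ERG28 stood 0.96 above its class median of -2.12, at 92.7%, and ERG3 0.47 above its class median of -1.70, at 75.3%. Beside features of like count, ERG25 and ERG28 were thus the furthest above the median among the 10 genes. Both are short (930 and 447 bases), so these classes hold features that can differ from them in level per kb. Per kb in DMSO, ERG25 and ERG28 stood at the 72.8th and 73.9th percentiles of protein-coding features. Of the other enzymes of C-4 demethylation, YGL001C lay 0.69 above its class median and YLR100W at -0.06 from its own.

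**Figure D3:**
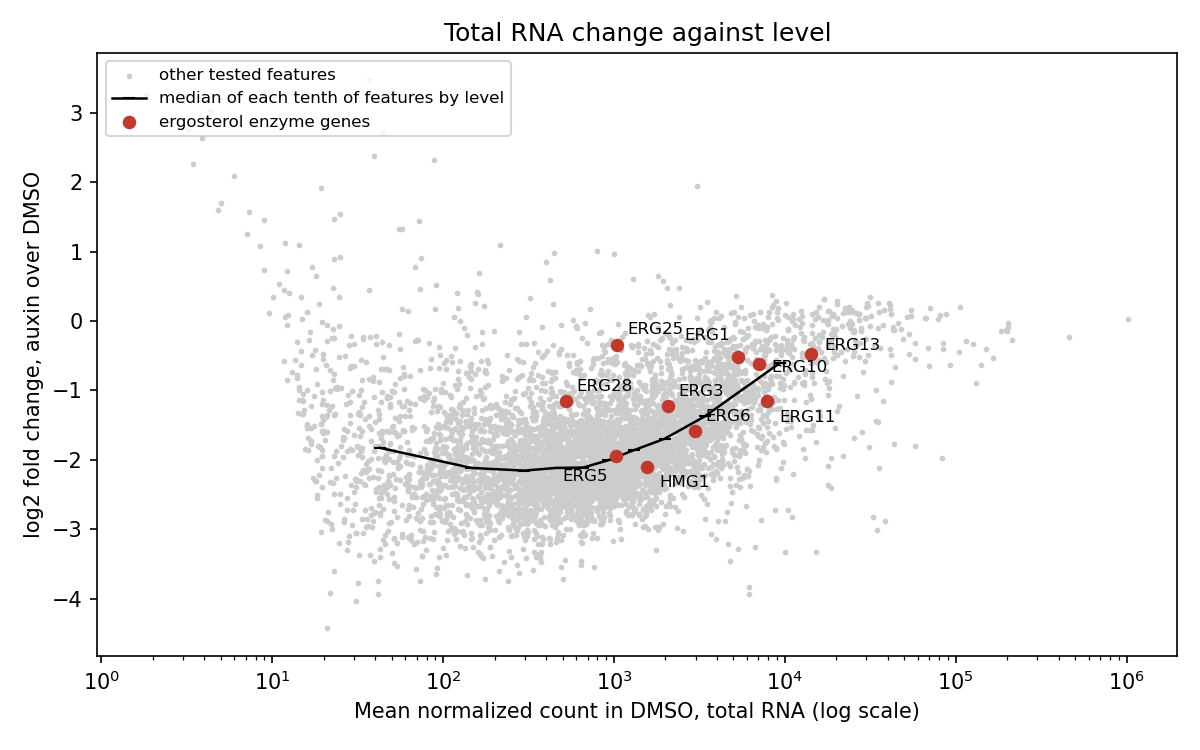
Log2 fold change of total RNA, auxin over DMSO with the authors' scaling, against the mean normalized count in DMSO (log axis) for the tested features in grey and the 10 genes in red. The black line joins the medians of 10 classes of level, from -2.15 at its lowest to -0.60 in the most abundant class, and ERG25 and ERG28 stand 1.66 and 0.96 above the line's value in their classes. TMM scaling moves the median of all features to -0.09 and most of the 10 genes above 0.

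In newly synthesized RNA all 6 listed genes were far lower after auxin, but their inclusion in the table settled that in advance. In the authors' deposited table, the adjusted p-values fit ranks among 6707 features, to within 1% for 2818 of the 2821 that have a p-value. The listed features thus make up the 42.1% that ranked best, and the largest log2 fold change in the authors' deposited table was -2.20. Called lower were 6 of 6 genes, as were 100% of the listed features, and 0% were higher. With TMM scaling, where 25% of features were lower and 21.2% higher, ERG6 and HMG1 were called lower, ERG13 and ERG5 higher, and ERG10 and ERG25 were not called. These values are given as a description.

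ERG10 had 1134 and 1234 normalized counts in newly synthesized RNA of auxin libraries, against 7554.5 and 8250.4 in DMSO libraries. ERG13 had 4100.3 and 4558 in auxin libraries, against 23116 and 24442 in DMSO libraries. HMG1 had 888 and 1256 in auxin libraries, against 7896 and 9303 in DMSO libraries. For these genes of the mevalonate part, each auxin library lay several-fold below each DMSO library, at log2 fold changes of -2.74 (SE 0.263), -2.46 (SE 0.247) and -3.004 (SE 0.266). ERG25 had 355 and 518 in auxin libraries, against 2732.5 and 2955.5 in DMSO libraries. ERG6 had 347 and 439.9 in auxin libraries, against 4657 and 4969 in DMSO libraries. ERG5 had 1178 and 1529.9 in auxin libraries, against 7379.8 and 8906 in DMSO libraries. Their log2 fold changes were -2.70 (SE 0.244), -3.61 (SE 0.269) and -2.59 (SE 0.261), so ERG6, at 8.18% of its DMSO mean, was the lowest of the 6 and ERG13, at 18.2%, the highest. Of the listed features, 2.06% had a log2 fold change as low as that of ERG6 or lower, and 93.8% had one as low as that of ERG13 or lower.

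The fold changes of the 2 fractions were set against each other by an interaction of fraction and treatment over all 8 libraries. ERG25 had the widest gap, -2.36 on the log2 scale (SE 0.289, edgeR adjusted p = 5.55e-15), with 15.4% of its newly synthesized RNA and 78.6% of its total RNA left after auxin. ERG10 (-2.12, SE 0.284), ERG6 (-2.02, SE 0.289) and ERG13 (-1.98, SE 0.277) followed. HMG1 (-0.91, SE 0.288, edgeR adjusted p = 4.16e-03) and ERG5 (-0.65, SE 0.290, edgeR adjusted p = 0.0474) had the narrowest gaps. All 6 were called lower in newly synthesized RNA than in total RNA, against 54.6% of the 2821 features listed in both tables, whose median gap was -0.72, and 0% were called the other way. Features entered the newly synthesized RNA table by a low p-value there, and every listed feature had a log2 fold change of -2.21 or lower. In total RNA the 6 genes all stood above that, from -2.10 to -0.34. With the authors' scaling their gaps could therefore only be negative, and the calls are given as a description. The part of this listing in the size of the gap was not tested. The gap also rests on the size factors of both tables: with TMM scaling 4 of the 6 genes were called, HMG1 was at -0.07 (adjusted p = 0.627) and ERG5 at 0.20 (adjusted p = 0.208). With library size scaling 0 of the 6 were called lower, 2 (HMG1 and ERG5) were called higher, the values of ERG13, HMG1, ERG6 and ERG5 turned positive, and the median gap of all features was 1.33. The call of ERG5 was lost without 6 of the 8 libraries in turn and that of HMG1 without 3 of them.

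The 6 genes also differed in the ratio of newly synthesized to total RNA in DMSO, a comparison that uses no auxin library. With TMM scaling over the 4 DMSO libraries, a ratio of 1 is that of the typical feature listed in both tables. ERG5 had a ratio of 2.05 (log2 1.04, SE 0.061, edgeR adjusted p = 6.31e-05) and HMG1 of 1.43 (log2 0.52, SE 0.052, edgeR adjusted p = 4.07e-04). ERG10 had a ratio of 0.293 (log2 -1.77, SE 0.052, edgeR adjusted p = 1.10e-05), ERG6 of 0.418 (log2 -1.26, SE 0.158) and ERG13 of 0.436 (log2 -1.20, SE 0.091). ERG25 had a ratio of 0.718 (log2 -0.48, SE 0.128, edgeR adjusted p = 0.0181), about as far below the typical feature as HMG1 lay above it. The call of ERG25 was lost without newly synthesized DMSO replicate 1 or 2. With library size scaling ERG25 turned to 0.32 on the log2 scale. Of the 6 genes 4 were called below and 2 above the typical feature, against 38.6% and 40.1% of the features.

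HMG1 and ERG5, the genes with the highest ratio of new to total RNA in DMSO, were also those with the deepest falls of total RNA. They also had the lowest levels per kb. Their log2 fold changes of -2.10 and -1.94 stood beside medians of -1.86 and -2.004 in their level classes. So that no library served in both measures, the ratio was taken from DMSO replicate 1 and the change of total RNA from replicate 2, and then the other way round. In both splits ERG10 had the lowest and ERG5 the highest ratio among the 6, and total RNA was best kept in ERG25, then ERG13, ERG10, ERG6 and ERG5, and least in HMG1. ERG25 stood apart from that order, since only HMG1 and ERG5 had higher ratios among the 6 while its total RNA was the best kept. Over all 2821 features listed in both tables the Spearman correlation of ratio and change was -0.49 in the one split and -0.64 in the other. It runs across genes, which are not independent replicates and share library depth. The features were listed by their low p-values in newly synthesized RNA, and the part of that listing or of level in the correlation was not tested.

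**Figure D4:**
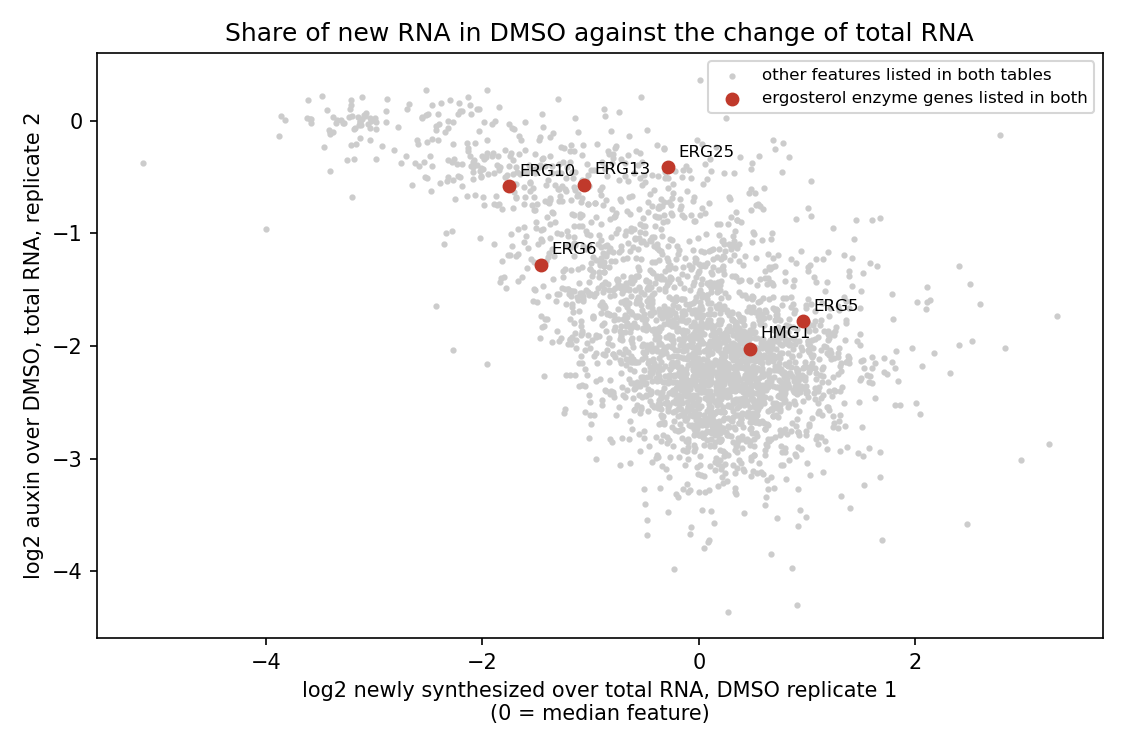
Log2 ratio of newly synthesized to total RNA in DMSO replicate 1 (centred on the median feature) against the log2 change of total RNA, auxin over DMSO, in replicate 2 with the authors' scaling. Grey points are features listed in both tables and red points the 6 sterol genes. HMG1 and ERG5 lie at the right and low, ERG10, ERG13 and ERG6 at the left and higher, and ERG25 at the top near the middle.

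HMG1 has a paralog, HMG2 (YLR450W), the other HMG-CoA reductase, and reads shared by both could not be separated here. HMG2 had log2 fold changes of -1.41 (SE 0.190) in total RNA and -2.48 (SE 0.260) in newly synthesized RNA with the authors' scaling. The ratio of HMG1 to HMG2 per kb within a library, which no scaling moves, was 0.754 and 0.770 in total RNA of auxin libraries, against 1.204 and 1.25 in DMSO libraries. In newly synthesized RNA the ratio was 0.994 and 1.10 in auxin libraries, against 1.48 and 1.54 in DMSO libraries. HMG1 therefore lost ground to HMG2 in both fractions, and auxin and DMSO libraries did not overlap in either. With 2 libraries a group no exact permutation test can go below p = 0.333. In DMSO both reductases lay above the typical feature in the ratio of new to total RNA (HMG2 log2 0.22, edgeR adjusted p = 0.0105).

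The other 13 enzymes of the pathway had nearly the same median in total RNA as the 10. With TMM scaling 11 were called higher and 0 lower, against 29.6% and 32.3% of all features tested. With the authors' scaling 12 were called lower, 0 higher and 1 was not called, with a median of -1.19. Over all features tested, 92.3% were called lower with the authors' scaling. IDI1, the isopentenyl diphosphate isomerase, had the lowest value (-1.89, SE 0.201) and ERG20, the farnesyl pyrophosphate synthetase, the highest (-0.36, SE 0.197, edgeR adjusted p = 0.0691). YMR220W (phosphomevalonate kinase) had a log2 fold change of -1.82, and ERG2, the C-8 sterol isomerase, of -0.54 (SE 0.196). These 13 and the 10 genes together had 21 of 23 called lower and 0 higher, with a median of -1.19. That is near the share called lower over all features tested. Of the 13, the 11 listed for newly synthesized RNA had a median of -2.85, against -2.80 for all listed features, and ran from -3.33 (YGL001C, C-3 sterol dehydrogenase) to -2.35 (ERG20). Of these 11, 10 were called below the typical feature in the ratio of new to total RNA in DMSO, and 1, HMG2, above it. Over all features listed in both tables, 38.6% were called below and 40.1% above.

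The RNAs of proteins that pass electrons or heme to the sterol enzymes were lower too, as were those of most features. All 3 were called lower in total RNA (median -1.87), against 92.3% of all features tested, whose median was -1.85. With TMM scaling 1 was called higher and 0 lower. NCP1, the reductase that supplies the cytochrome P450 enzymes ERG11 and ERG5, had the highest value (-0.78, SE 0.187), and YPL170W, a heme-binding protein that regulates Erg11, the lowest (-2.20, SE 0.246). YNL111C, cytochrome b5, an electron donor for C-5 desaturation, stood at -1.87 (SE 0.252).

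The 8 regulators of the pathway had a median near that of all features but spread widely on both sides of it. All 8 were called lower with the authors' scaling (median -1.87), as were 92.3% of all features tested. With TMM scaling 1 was called lower and 2 higher. UPC2, the sterol-sensing activator, had the highest value (-1.18, SE 0.192), at 43.9% of DMSO, and its paralog ECM22 (YLR228C) had -1.85 (SE 0.195). HAP1, the heme-responsive factor, had -2.36 (SE 0.197), and MOT3, which represses ergosterol genes in osmotic stress, the lowest (-3.41, SE 0.302), at 9.39% of DMSO.

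Genes of sterol esters and sterol uptake had a median of -1.94. Called lower were 9 of 9, against 92.3% of all features tested, and 0 were called higher, whereas TMM scaling gave 2 lower and 2 higher. The acyltransferase ARE2, which esterifies sterols in air, had the lowest value (-2.56, SE 0.199), and the sterol importer AUS1 (YOR011W) the highest (-1.04, SE 0.200). Fatty acid synthesis, a neighbouring lipid pathway that shares acetyl-CoA as its start, had a median of -0.80 over 10 genes. TMM scaling called 9 of them higher, against 29.6% of all features tested. With the authors' scaling 8 were called lower, 0 higher and 2 were not called. The desaturase OLE1 had 0.04 (SE 0.196, edgeR adjusted p = 0.837), the beta subunit of fatty acid synthetase (YKL182W) -0.18 (SE 0.201, edgeR adjusted p = 0.372) and the elongase ELO1 (YJL196C) the lowest value (-1.81, SE 0.193). OLE1 and YKL182W are, like several of the sterol enzymes, among the more abundant features. They lay 1.42 and 0.42 above the medians of their level classes, -1.37 and -0.60. The part of level in these values was not tested, and no test of one list against another was made.

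**Figure D5:**
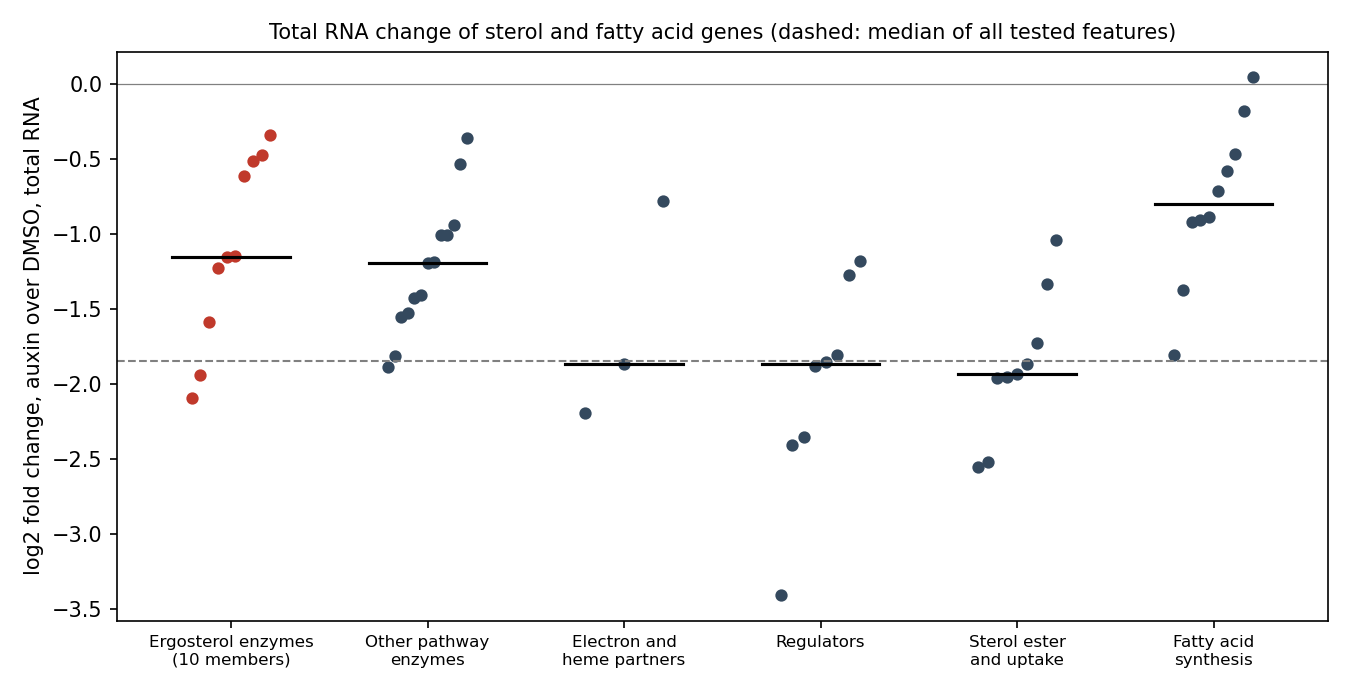
Log2 fold change of total RNA, auxin over DMSO with the authors' scaling, for each gene of 6 lists. Bars mark list medians (-1.16, -1.19, -1.87, -1.87, -1.94 and -0.80 from left to right) and the dashed line the median of all tested features, -1.85. TMM scaling moves all points up, and the medians of the first 2 lists and of fatty acid synthesis then lie above 0.

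The 10 genes share few features of position. ERG13, HMG1, ERG6 and ERG5 lie on chromosome XIII, and 0 of the 10 overlap another feature of the total RNA table. The genes nearest to the median of the 6 listed sterol genes, over the log2 fold changes in both fractions and the log2 ratio of new to total RNA in DMSO, were POR1 (mitochondrial porin), AIM9, CDC37 (a co-chaperone of Hsp90), PHO3 (an acid phosphatase) and SUP45 (a translation release factor), among 1152 named genes. Their Euclidean distances to that median ran from 0.073 to 0.185, whereas the 6 genes themselves lay between 0.768 and 2.06 from it, so the median is a point between unlike genes.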

How the data were processed

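The deposited tables hold raw counts per S. cerevisiae feature, a normalized signal and that signal per kb, per the file headers, with the authors' log2 fold changes and p-values. The deposited signal equals the raw count over a constant for each library. The p-values were used only to describe which features are listed. The aligner, the counter and the basis of the size factors are not given in the sources used here. Libraries were stranded and depleted of ribosomal RNA, per the labels' protocols, and the build was sacCer3 and bcl2fastq 2.17.1.14, per the submitters' processing notes. Cells had been mixed with Schizosaccharomyces pombe cells before extraction, per the labels.

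Features averaging 10 or more counts were tested with edgeR 4.0.16 (R 4.3.3, quasi-likelihood F test) on the deposited counts over all features of a table, with treatment as the term and the authors' factors as scaling. The interaction of fraction and treatment, and the new to total ratio in DMSO (TMM scaling), used features listed in both tables. SE is the size of the log2 fold change over the square root of F. DESeq2 1.42.0 was an alternative. On simulated counts for total RNA (5571 features), 92.9% of changes of 1 on the log2 scale were recovered, and 100% of changes of 2. The simulation changed 200 features, as many up as down, at a fixed dispersion. It therefore does not give the power in the real counts, where 92.3% of features were called lower. The replicates differed by more than counting noise in every group. The genes and lists were chosen with earlier results of these data known. Named were the 10 genes, the lowest and highest of each list and, by distance, 5 like genes. ERG2, YMR220W, ECM22, HAP1, HMG2, YLR100W and YNL111C were added after their values were seen, and YKL182W is also outside that rule. Gene names absent from the tables are given as identifiers with the deposited role.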

Additional observations from a re-analysis of the deposited data

Results flagged for a closer look

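For the 6 sterol genes listed in both tables, the auxin effect differed between newly synthesized and total RNA by the test of that difference itself. On the log2 scale, newly synthesized minus total, the difference was -2.12 for ERG10, -1.98 for ERG13, -0.91 for HMG1, -2.36 for ERG25, -2.02 for ERG6 and -0.65 for ERG5. Such a difference was called for 54.6% of the features listed in both tables, and these features are listed by their low p-values in newly synthesized RNA. Every listed feature had a log2 fold change of -2.21 or lower in newly synthesized RNA, and all 6 genes stood above that in total RNA. With the authors' scaling the direction of these 6 values was therefore settled by the listing, and its part in their size was not tested. The values also move with the scaling, since that of ERG5 changes sign with TMM scaling, and with library size scaling those of ERG13, HMG1, ERG6 and ERG5 change sign and 0 of the 6 are called lower.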

How the results depend on the processing

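Scaling decided the direction of most values. In total RNA, TMM scaling gave 1805 features lower and 1652 higher, with 1 of the 10 genes lower and 7 higher: ERG10 turned to 1.15, ERG13 to 1.30, ERG1 to 1.24, ERG11 to 0.62, ERG25 to 1.43, ERG28 to 0.61, ERG6 to 0.16 and ERG3 to 0.54. DESeq2 with its own size factors gave 1122 lower and 1626 higher, with 0 and 7 of the genes (ERG10 1.22, ERG13 1.37, ERG1 1.31, ERG11 0.69, ERG25 1.496, ERG28 0.68, ERG6 0.24, ERG3 0.61). Library size scaling gave 379 features higher and turned ERG10 to 0.0019, ERG13 to 0.15, ERG1 to 0.0945 and ERG25 to 0.28. A minimum of 100 counts left 22 features higher. With features of both tables alone, 2641 were lower and 0 higher, with 5 of 6 genes lower and the distance of the medians was 0.97. Leaving out 1 library moved that distance between 0.61 and 0.79, and the count of genes called lower between 6 and 10.

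In newly synthesized RNA, features lower and higher numbered 705 and 597 with TMM scaling, 813 and 438 with library size scaling, and 549 and 500 with DESeq2's own factors. Of the 6 genes these settings called 2, 2 and 1 lower and 2, 1 and 2 higher. ERG10 turned to 0.0569, 0.0090 and 0.0647, ERG13 to 0.34, 0.29 and 0.34, ERG25 to 0.0756, 0.0278 and 0.0810, and ERG5 to 0.20, 0.15 and 0.21.

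For the difference between fractions, features lower and higher numbered 796 and 748 with TMM scaling, 177 and 2352 with library size scaling, and 892 and 295 with DESeq2's own factors. Library size scaling called 0 of the 6 genes lower and 2 higher and turned ERG13 to 0.0618, HMG1 to 1.135, ERG6 to 0.0378 and ERG5 to 1.40. ERG5 also turned to 0.20 with TMM scaling and to 0.0587 with DESeq2's own factors. With 1 library left out, between 1126 and 2006 features were called lower. For the ratio of new to total RNA in DMSO, library size scaling gave 448 features lower and 2144 higher and ERG25 at 0.32. Beyond the shift of scale, the cause was not tested.

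DESeq2 with the main scaling and the filters on low counts changed no call of the 10 genes in any of the 4 comparisons. The correlation of deviations between same-numbered samples was -0.149 for auxin with DMSO in total RNA, 0.052 for the same in newly synthesized RNA, 0.177 for newly synthesized with total RNA in DMSO and 0.141 for these fractions in auxin. The labels give both fractions the same numbers and say that labelled RNA was purified from total RNA extracts, but not that a number marks 1 culture, and they give no batch shared by auxin and DMSO. With the replicate number as a block 5226 total RNA features were called lower and 51 higher, and ERG25 was called (-0.34, adjusted p = 0.0142); for the difference between fractions the block was treatment by replicate number, 2148 features were called lower, and no call of the 6 genes changed there or in the ratio of new to total RNA (1061 features lower, 1097 higher). With crossed numbers, an alternative chosen after seeing the data, 4982 features and 6 of the 10 genes were called lower in total RNA. Low counts do not limit these genes, but 2 libraries a group do.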
